A study of Brachypodium distachyon with 20 samples.

Results

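The genes described here were high in the youngest and in the mature Brachypodium embryo and low in the stages between. They were chosen on measured log2 CPM values (counts relative to library size, on a log2 scale, with the authors' normalization) of 5 of the 7 embryo stages. Of 23749 genes, 8553 had a mean of at least 3 log2 CPM in both the 2-cell and quadrant (TCQ) and the mature (MAT) embryo. For each of these, the highest mean of the transition (TRA), leaf early (LEE) and leaf middle (LEM) stages was subtracted from the lower of the TCQ and MAT means. This difference is called the margin, and the 100 genes with the largest margin, 1.17% of the 8553, are the members. The values of these 5 groups therefore describe the choice and were not tested.

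All 10 groups come from Bd21, the reference line of Brachypodium distachyon, from flowers that were emasculated and pollinated by hand, without a mutant or a treatment. The embryos were dissected at TCQ, pro-embryo (PEM, labelled preembryo), TRA, LEE, LEM, leaf late (LEL) and MAT. Early endosperm (EEN) was taken at the time of TRA, and late endosperm (LEN) and seed coat (SEC) at the time of LEL. Each group has 2 libraries, each from pooled embryos or grains, and all mRNA was amplified before library preparation. The study's methods call the 2 pools of a group biological replicates. Whether they came from separate plantings or dissection days was not found in the sources used here, and a p-value weighs a difference against the spread between such pools.

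After fertilization a plant embryo holds transcripts inherited from the egg cell together with those of its own genome. In the middle stages cells divide and organs form, among them the scutellum, the coleoptile and the first leaves of a grass embryo. A maturing embryo stores reserves, acquires desiccation tolerance and keeps mRNAs that can be used at germination. The endosperm is a separate product of fertilization that feeds the embryo, and the seed coat is maternal tissue. The files identify genes only by locus, and none of the 23749 identifiers matched the 31335 genes of the reference table used here, so no member has a name or a known function here. Levels are comparable between groups for a gene, but not between genes, since CPM is not corrected for transcript length.

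Library medians over all genes ranged from 2.52 to 2.98 log2 CPM, and the antilogs of a library's values summed to between 739963 and 1084752. Read numbers were not found in the sources used here, and no counting interval can be set around a value. Between the 2 libraries of a group, the median difference of the members was 0.11 in LEN, the smallest, and 0.25 in EEN, the largest. In these bulk libraries, fewer cells of a type and less RNA per cell cannot be told apart.

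The margins of the members ranged from 1.15 to 5.25 on the log2 scale, with a median of 1.46. Over the 8553 genes the median margin was -0.80, 1274 genes (14.9%) had a margin above 0 and 146 had a margin above 1. The median SD of a member's margin between replicates was 0.15. The member with the smallest margin, Bradi5g16320.8, had a margin of 1.1456, and the gene just outside, Bradi3g53430.1, had 1.1452, so no gap separates members from other genes. All 4 TCQ and MAT libraries lay above all 6 TRA, LEE and LEM libraries for each of the 100 members. The same held for 11.2% of the 8553 genes, and nothing is read from this count because the rule used these libraries.

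The median level of the members was 4.81 log2 CPM in TCQ, 3.72 in PEM, 2.58 in TRA, 2.23 in LEE, 2.27 in LEM, 3.77 in LEL and 5.07 in MAT. It was 4.02 in EEN, 4.998 in LEN and 4.93 in SEC. The median over the 8553 genes lay between 5.09 and 5.32 in every group. The members thus stood near the other genes of their kind at both ends and in the late tissues, and well below them in the middle embryo stages, as the rule required for the embryo.

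**Figure D1:**
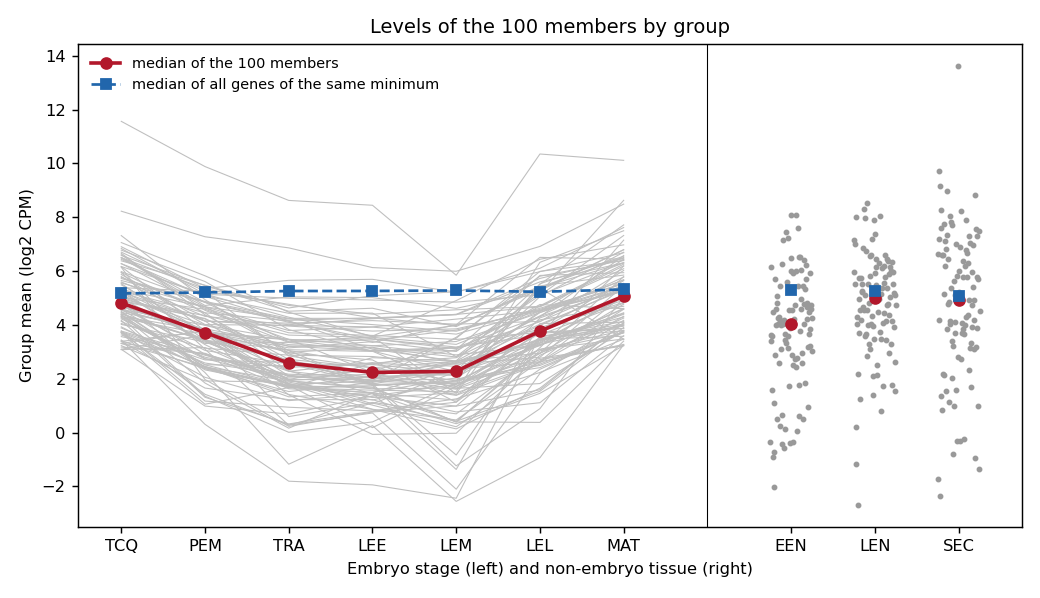
Group means of the 100 members in log2 CPM, for 7 embryo stages and 3 non-embryo tissues. Grey lines (embryo) and grey points (tissues) are members, red circles are their median, and blue squares are the median of the 8553 genes with TCQ and MAT means of at least 3. The member median falls from 4.81 in TCQ to 2.23 in LEE and is 5.07 in MAT.

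Most of the fall lay before TRA and most of the return after LEM. The rule needs TRA below TCQ and LEM below MAT by at least the margin, so it largely sets this timing. The steps are therefore given as a description. The median change was a fall of 1.28 log2 from TCQ to PEM and a further fall of 0.82 from PEM to TRA. From TRA to LEE the median fall was 0.11, and from LEE to LEM the median change was -0.13. The median rise was 1.40 from LEM to LEL and 1.18 from LEL to MAT. Over the 8553 genes the medians of these 6 steps stayed between -0.06 and 0.13.

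The lowest of the 3 middle stages was TRA for 22 members, LEE for 28 and LEM for 50. Over the 8553 genes the shares were 35.3%, 21.0% and 43.7%. Among the embryo stages, the highest mean was at TCQ for 46 members, at MAT for 52 and at LEL for 2. The MAT mean was above the TCQ mean for 53 members, with a median difference of 0.03, and 65 members had TCQ and MAT means within 1 log2 of each other.

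Single members were far from this balance. Bradi3g18070.1 had 2.88 and 3.74 log2 CPM in TCQ and 7.64 and 7.36 in MAT, the largest rise of a member between these stages, 4.19. Bradi4g30290.1 had 7.46 and 7.18 in TCQ and 4.52 and 4.32 in MAT, the largest fall, with a difference of -2.90. Both were chosen after their values were seen.

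Bradi5g08850.1 had the largest margin, 5.25, while the next member had 3.44. Its levels were 3.71 and 3.17 log2 CPM in TCQ, 0.81 and -0.20 in PEM, -1.64 and -1.97 in TRA, -1.88 and -2.01 in LEE and -2.76 and -2.12 in LEM. They were 3.53 and 3.64 in LEL and 7.12 and 7.18 in MAT. LEL was thus already back at the TCQ level and MAT was far above it. Late endosperm held the same gene at 7.27 and 7.03, whereas early endosperm had -0.07 and -0.64 and seed coat -2.54 and -0.88.

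Bradi1g76270.1, the next by margin, had 6.07 and 5.82 log2 CPM in TCQ, 3.14 and 3.06 in PEM, 0.57 and -0.03 in TRA, 0.76 and 0.69 in LEE and -1.75 and -2.46 in LEM. It returned to 2.29 and 2.10 in LEL and to 4.31 and 4.03 in MAT. This member was lower in MAT than in TCQ. Its highest group was SEC, while LEN was close to TCQ and EEN was below it. EEN had 3.60 and 3.22, LEN 5.92 and 6.02 and SEC 6.55 and 6.68.

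Bradi1g55067.1 had 5.32 and 5.13 log2 CPM in TCQ, 3.21 and 3.33 in PEM, 1.79 and 1.74 in TRA, 0.69 and 1.04 in LEE and 0.49 and 0.44 in LEM, a level that fell at every step. LEL had 2.62 and 2.68 and MAT 5.10 and 5.11, close to TCQ. Both endosperm groups were above all embryo stages, with 5.998 and 6.28 in EEN and 7.13 and 6.85 in LEN. SEC had 4.09 and 4.24, below TCQ and MAT.

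Bradi2g45470.1 had 5.39 and 5.68 log2 CPM in TCQ, 3.31 and 3.57 in PEM, 2.27 and 1.86 in TRA, 2.39 and 2.22 in LEE and 2.32 and 1.92 in LEM. In contrast to the previous gene it was flat over the 3 middle stages. LEL had 5.12 and 4.98 and MAT 6.69 and 6.71. EEN had 3.98 and 3.26, LEN 5.47 and 5.59 and SEC, the highest group, 7.10 and 7.26.

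**Figure D2:**
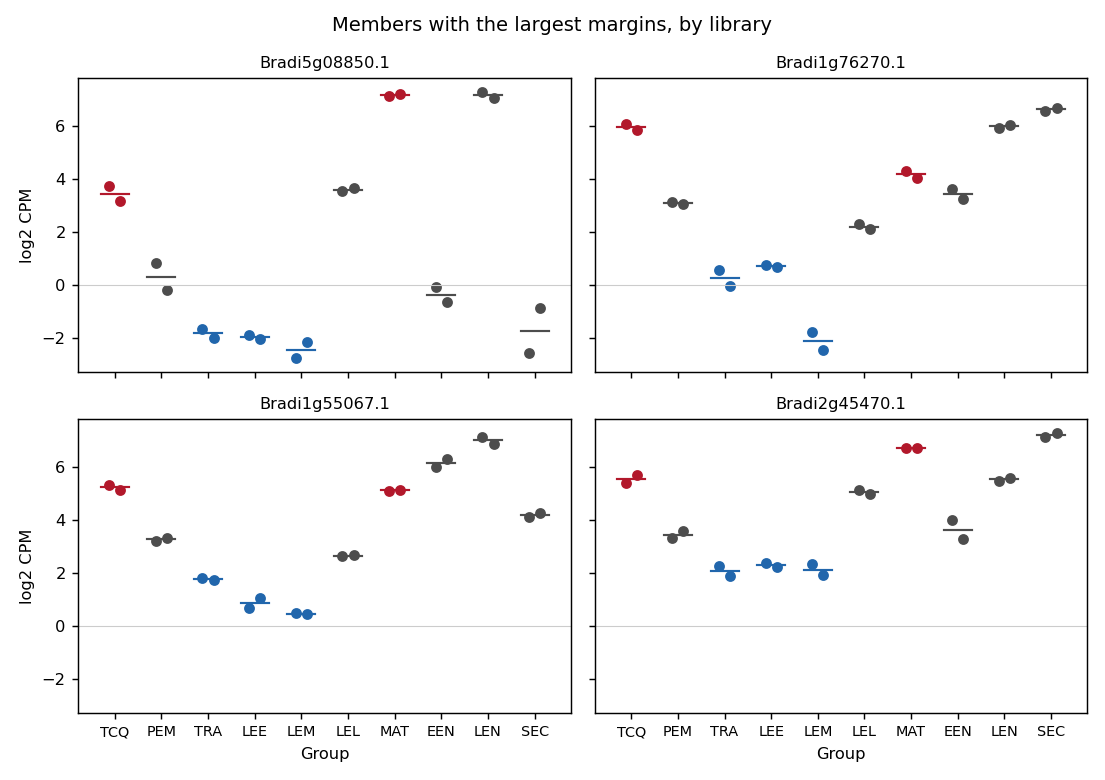
Levels in log2 CPM of the 4 members with the largest margins in each of the 20 libraries, by group. Points are libraries, bars are group means, and colours mark the groups that the rule needs high (red), needs low (blue) or does not use (grey). Bradi5g08850.1 and Bradi2g45470.1 were above their PEM libraries in both LEL libraries, while Bradi1g76270.1 and Bradi1g55067.1 were below them.

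PEM and LEL, the 2 embryo stages that the rule does not use, lie next to the groups that chose the members. The PEM mean lay between the TRA and TCQ means for 92 members and the LEL mean between the LEM and MAT means for 95. PEM was within 1 log2 of TCQ for 33 members and LEL within 1 log2 of MAT for 38. Both PEM libraries were above all 6 libraries of the middle stages for 79 members, against 20.8% of the 8553 genes. For both LEL libraries this held for 80 members, against 20.1%. Since members were chosen for low middle stages, these counts are a description and were not tested.

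A few members, chosen after their values were seen, departed from the order of stages. PEM was at or above TCQ for 4 members, Bradi2g59860.1, Bradi3g18070.1, Bradi1g66920.1 and Bradi2g44320.1. PEM was at or below TRA for 4 others, Bradi4g39910.1, Bradi3g35550.1, Bradi3g03620.3 and Bradi4g38960.2. LEL was at or above MAT for Bradi5g18407.2, Bradi4g39910.1, Bradi1g77820.1 and Bradi5g27260.1. LEL was not above LEM for 1 member, Bradi3g54460.1, which had 1.51 and -0.75 log2 CPM in LEL, a difference between libraries that exceeds the change between the stages.

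LEL was compared with PEM to ask whether the members were already higher late in the embryo than they still were early. The answer differed between members: 47 were higher in LEL and 26 lower (limma, adjusted p under 0.05), and 27 were not called. Of all 22902 genes tested, 36.0% were called higher and 37.4% lower, and of the 8553 genes 38.6% and 38.7%. The median change of the members was 0.34 log2, beside 0.00 over the 8553 genes and -0.01 over all tested genes. The share called higher was therefore somewhat above the background and the share called lower below it. Both stages lie next to groups that chose the members, and what this adds to the counts was not tested. A change above 2 log2 was called upward in 8 members and downward in 5, compared with 3.67% and 6.17% of the 8553 genes and 10.2% and 13.2% of all tested genes. When the members were chosen with a minimum of 4 log2 CPM in TCQ and MAT, 57 were called higher in LEL and 16 lower. With a minimum of 2 log2 CPM, 46 were called higher and 28 lower.

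Bradi4g39910.1 had 1.23 and 0.87 log2 CPM in PEM and 5.43 and 5.31 in LEL, a rise of 4.32 log2 (SE 0.32, limma adjusted p = 7.97e-09). It was the only member whose highest group of all 10 was LEL, and it had lower levels in MAT, 3.53 and 3.39. Bradi5g08850.1 rose by 3.28 log2 (SE 0.44, limma adjusted p = 6.73e-06) between the PEM and LEL levels given above.

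The largest differences in the other direction were those of Bradi2g38220.1 and Bradi2g11420.1. Bradi2g38220.1 had 4.83 and 4.52 log2 CPM in PEM and 0.80 and 0.97 in LEL, a change of -3.78 log2 (SE 0.19, limma adjusted p = 1.26e-10). It still fell through the middle stages, with 3.29 and 2.80 in TRA, 1.48 and 2.04 in LEE and both LEM libraries at -1.24, a value shared as the floor of this gene, and MAT had 5.05 in both libraries. Bradi2g11420.1 had 2.34 and 2.11 in PEM and -1.35 and -0.52 in LEL, a change of -3.16 log2 (SE 0.39, limma adjusted p = 2.37e-06). Its MAT libraries had 3.34 and 3.19, so in both genes most of the return from LEM to MAT came after LEL.

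Outside the embryo, most members reached the minimum level of the rule, but a smaller share of them did than of the 8553 genes. A mean of at least 3 log2 CPM was reached by 70 members in EEN, 84 in LEN and 78 in SEC, compared with 90.9%, 90.2% and 89.3% of the 8553 genes. In the embryo stages that the rule does not use it was reached by 67 members in PEM and 74 in LEL, compared with 95.1% and 97.7%. The highest of the 10 group means was in a non-embryo tissue for 57 members, compared with 38.3% of the 8553 genes. It was in SEC for 33 members (14.9% of the 8553 genes), in MAT for 28 (21.9%), in LEN for 19 (11.6%), in TCQ for 14 (11.2%) and in EEN for 5 (11.9%). The rule keeps the highest mean out of 3 embryo stages, so these shares are given as a description.

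Both libraries of a tissue were above all 6 libraries of TRA, LEE and LEM for 70 members in EEN, 81 in LEN and 74 in SEC. The same held for 29.6%, 33.2% and 28.6% of the 8553 genes. These counts, too, rest on the low middle stages that chose the members.

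By the same minimum of 3 log2 CPM, 60 members reached it in EEN, LEN and SEC alike, against 80.8% of the 8553 genes. LEN and SEC without EEN held 10 members (2.77%), EEN and LEN without SEC 8 (5.85%), SEC alone 7 (3.15%) and LEN alone 6 (0.842%). None of the 3 tissues reached the minimum for 7 members (2.32%). A single member, Bradi5g27260.1, had EEN and SEC without LEN (2.57%) and another, Bradi2g16447.2, had EEN alone (1.73%). The 7 members below the minimum in all 3 tissues reached it in embryos alone, but their distance from this cutoff differed. Bradi3g46620.1 had means of -0.90 in EEN, -1.18 in LEN and -2.35 in SEC. Bradi1g53690.1 had 2.49 in EEN, 2.49 in LEN and 2.75 in SEC, above its means of 2.27 in TRA, 1.93 in LEE and 1.99 in LEM.

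**Figure D3:**
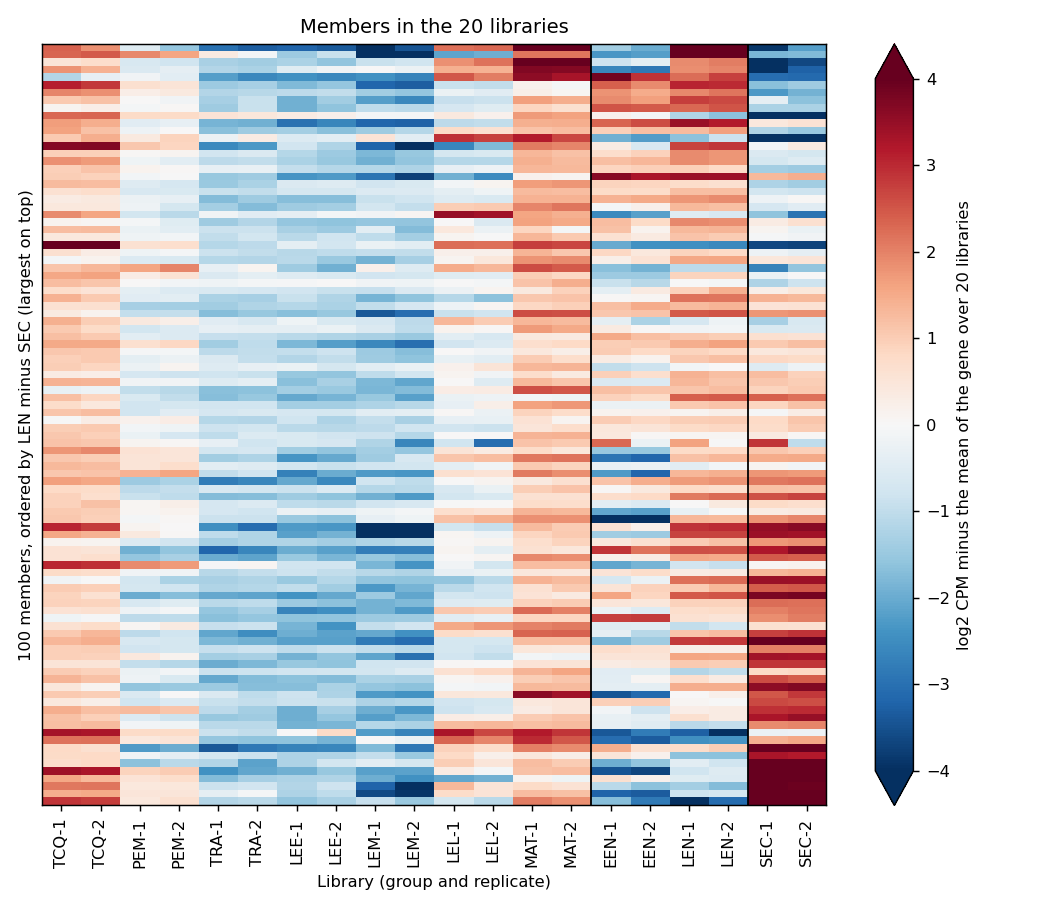
The 100 members (rows) in the 20 libraries (columns), each shown as its log2 CPM minus the member's mean over the 20 libraries (red above, blue below, colours saturated beyond 4). Rows are ordered by LEN minus SEC, largest on top. The TRA, LEE and LEM columns are mostly blue, as chosen, and the tissue columns differ between members. Between LEN and SEC, 39 members were called higher in LEN and 42 in SEC (limma), beside 52.0% and 30.0% of the 8553 genes.

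Late endosperm was compared with early endosperm, a comparison without an embryo group. Members were higher in LEN in 63 cases and lower in 13 (limma), with 24 not called. Of all tested genes 31.3% were called higher and 30.9% lower, and of the 8553 genes 30.6% and 38.4%. The median change was 0.69 log2 for the members, 0.00 for all tested genes and -0.09 for the 8553 genes. A rise above 2 log2 was called in 18 members and a fall of that size in 1, compared with 2.76% and 3.02% of the 8553 genes and 7.78% and 6.25% of all tested genes. The number called lower was 21 when the members were chosen with a minimum of 4 log2 CPM. In a fit of these 2 groups alone, 57 members were called higher and 8 lower. Calls over the whole table also fell in that fit, from 7160 genes higher and 7070 lower to 6032 and 5824.

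The 2 largest rises were those of members already met. Bradi5g08850.1 rose by 7.51 log2 (SE 0.44, limma adjusted p = 1.03e-09) from the EEN to the LEN levels given above. Bradi2g38220.1 had 0.60 and 0.72 log2 CPM in EEN and 7.98 and 7.93 in LEN, a rise of 7.29 log2 (SE 0.19, limma adjusted p = 2.43e-13). Both members were at least 3 log2 CPM in LEN alone among the tissues.

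Bradi5g08400.1 fell most, from 7.57 and 7.61 log2 CPM in EEN to 5.42 and 5.34 in LEN, a change of -2.22 log2 (SE 0.10, limma adjusted p = 3.87e-11). Its embryo levels ran from 3.15 and 3.27 in TRA to 5.69 and 5.67 in MAT, all below EEN. Bradi5g27260.1 had 4.75 and 4.44 in EEN and 2.60 and 2.61 in LEN, a change of -1.99 log2 (SE 0.19, limma adjusted p = 2.02e-07). SEC was its highest group, with 7.53 and 7.43.

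**Figure D4:**
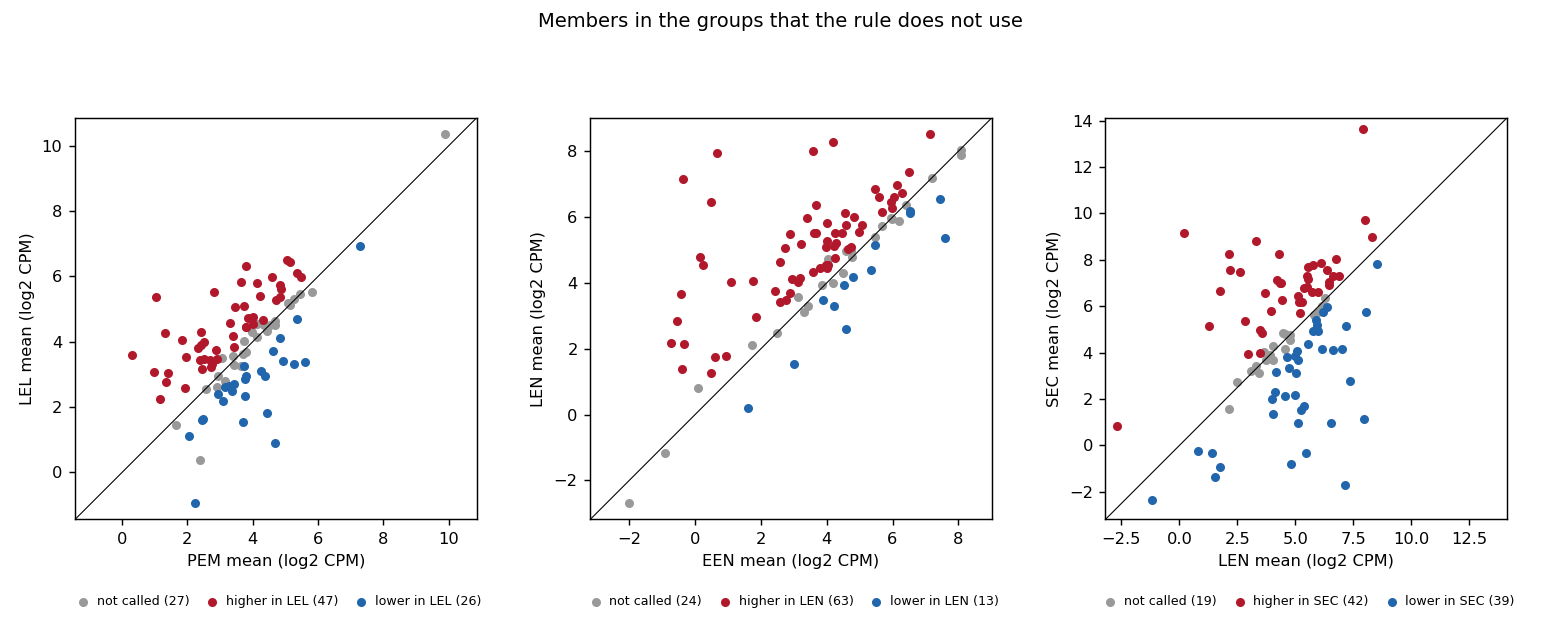
Group means of the 100 members in log2 CPM for LEL against PEM, LEN against EEN and SEC against LEN, groups that the rule does not use. Points are members, coloured by the limma call at an adjusted p under 0.05, and the line marks equal levels. Members called higher and lower numbered 47 and 26, 63 and 13, and 42 and 39. The shares of the 8553 genes were 38.6% and 38.7%, 30.6% and 38.4%, and 30.0% and 52.0%.

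The tissues collected together with LEL embryos were compared with them and with each other. These 3 comparisons share their groups, and LEL and LEN are also in the comparisons above, so they are not independent of each other. LEN was higher than LEL in 63 members and lower in 18 (limma), with 19 not called. Of all tested genes 36.7% were higher and 37.2% lower, and of the 8553 genes 39.7% and 38.1%. The median change of the members was 1.01 log2, beside 0.03 for the 8553 genes. Differences above 2 log2 were called upward in 27 members and downward in 11, compared with 3.98% and 8.06% of the 8553 genes and 12.4% and 13.5% of all tested genes. LEL lies on the way back from the low stages that chose the members, and what this adds to the difference was not tested.

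In LEN, Bradi2g38220.1 was 7.07 log2 above LEL (SE 0.19, limma adjusted p = 1.09e-13). Bradi1g21290.1 had 1.84 and 1.23 log2 CPM in LEL and 7.19 and 7.17 in LEN, 5.64 log2 higher (SE 0.22, limma adjusted p = 5.8e-12). EEN had 7.40 and 7.02 of this gene, so its level was high in both endosperm groups.

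Bradi2g06220.1 and Bradi3g46620.1 were the reverse, with little signal in any tissue. Bradi2g06220.1 had 4.35 and 3.75 log2 CPM in LEL and -2.20 and -3.17 in LEN, a change of -6.74 log2 (SE 0.34, limma adjusted p = 7.82e-11). Bradi3g46620.1 had 3.56 and 3.53 in LEL and -1.12 and -1.25 in LEN, a change of -4.73 log2 (SE 0.20, limma adjusted p = 9.01e-12). Both are among the 7 members under 3 log2 CPM in all tissues, and in TCQ they had 4.41 and 4.35, and 6.22 and 6.07.

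SEC was higher than LEL in 62 members and lower in 26 (limma), with 12 not called. Of all tested genes 37.4% were higher and 39.3% lower, and of the 8553 genes 32.6% and 48.4%. The median change of the members was 0.90 log2, beside -0.25 for the 8553 genes. Changes above 2 log2 were called upward in 36 members and downward in 12, compared with 6.01% and 10.9% of the 8553 genes and 16.1% and 14.4% of all tested genes. The median level of the members was 3.77 log2 CPM in LEL, beside 5.23 for the 8553 genes, and 4.93 in SEC, beside 5.09. Here, too, what the low stages that chose the members add to the difference was not tested.

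Bradi2g56347.2 had 1.75 and 1.89 log2 CPM in LEL and 8.78 and 8.86 in SEC, 7.001 log2 higher (SE 0.19, limma adjusted p = 5.36e-14). Bradi2g23750.1 had 3.13 and 2.76 in LEL and 9.08 and 9.24 in SEC, 6.21 log2 higher (SE 0.34, limma adjusted p = 1.64e-10). For both genes SEC was the highest of the 10 groups.

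Bradi4g38800.1 was present at 5.94 and 5.74 log2 CPM in LEL and at 6.20 and 5.68 in MAT, while both SEC libraries were at its floor of -0.94, so no fold is given. It was called lower in SEC (limma adjusted p = 2.46e-11). Bradi3g46620.1 had -2.33 and -2.37 in SEC, a change from LEL of -5.90 log2 (SE 0.20, limma adjusted p = 5.3e-13).

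Between SEC and LEN the members were divided, with 42 higher in SEC, 39 lower and 19 not called (limma). Of all tested genes 34.6% were higher and 41.5% lower, and of the 8553 genes 30.0% and 52.0%. The median change of the members was 0.02 log2, beside -0.37 for the 8553 genes. With library medians set equal, which lowers SEC against LEN by 0.27 log2, 37 members were higher and 47 lower. The whole table moved the same way, from 7918 genes higher and 9497 lower to 6827 and 10965. Lower calls also outnumbered higher ones among the members without any rescaling, at 41 to 40 without SEC replicate 2, and in the choices with a minimum of 4 log2 CPM (49 to 38) and of the top 200 genes (94 to 66), so no direction is read from the members' counts. Differences above 2 log2 were called upward in 17 members and downward in 18, compared with 8.16% and 6.84% of the 8553 genes and 17.0% and 13.2% of all tested genes.

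Bradi2g23750.1 had -0.37 and 0.78 log2 CPM in LEN, and was 8.96 log2 higher in SEC (SE 0.34, limma adjusted p = 2.13e-12). Bradi2g18060.3 had 2.09 and 2.22 in LEN and 8.26 and 8.22 in SEC, 6.09 log2 higher (SE 0.15, limma adjusted p = 1.61e-14). Its EEN libraries had -0.30 and -0.41, and both genes are among the 7 members above the minimum in SEC alone.

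In the other direction, Bradi5g08850.1 changed by -8.86 log2 (SE 0.44, limma adjusted p = 4.4e-11) from LEN to SEC. Bradi2g38220.1 had 1.08 and 1.16 log2 CPM in SEC, a change of -6.84 log2 (SE 0.19, limma adjusted p = 6.57e-14). The largest differences in this comparison thus belonged to members with high levels in 1 of the 2 tissues and low levels in the other.

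Among the 4 members with the largest margins, Bradi1g76270.1 and Bradi1g55067.1 were lower in LEL than in PEM, by -0.90 log2 (SE 0.23, limma adjusted p = 0.00219) and -0.62 (SE 0.14, limma adjusted p = 0.00117). Bradi2g45470.1 was higher in LEL by 1.61 log2 (SE 0.21, limma adjusted p = 3.96e-06). In late against early endosperm all 4 rose, Bradi1g76270.1 by 2.56 log2, Bradi1g55067.1 by 0.85 and Bradi2g45470.1 by 1.91, besides Bradi5g08850.1 above. LEN was above LEL by 3.78 log2 for Bradi1g76270.1 and by 4.34 for Bradi1g55067.1. For Bradi2g45470.1 this difference was 0.47 log2 (SE 0.21, limma adjusted p = 0.0494), a call that was lost without any 1 of the 4 libraries (adjusted p = 0.0765 to 0.181). Bradi1g76270.1 was 0.64 log2 higher in SEC than in LEN (SE 0.23, limma adjusted p = 0.0182), and this call was lost with library medians set equal (0.37 log2, adjusted p = 0.137), without LEN replicate 1 (0.59 log2, adjusted p = 0.0812) and without SEC replicate 2 (0.58 log2, adjusted p = 0.0871).

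Because a dissected embryo is small, the level of each member in TCQ was set beside that in SEC and EEN. These were taken at the times of LEL and TRA, later than TCQ, so they are not the tissues around a TCQ embryo. The CPM of members in TCQ was between 5.90% of that in SEC, at the lowest, and above it for 52 members, with a median of 107%. It was below 10% of SEC for 6 members. Against EEN the lowest was 5.70%, the median 160%, and TCQ was above EEN for 77 members. The MAT level of a member was at the lowest 3.06% of SEC and 10.3% of LEN, both taken at the time of LEL, before MAT. The rule set a minimum of 3 log2 CPM for TCQ and MAT, which limits how low these percentages can be, but less so for members with high tissue levels. What tissue carried along in dissection adds to a member's level was not tested.

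The members were spread over the 5 chromosomes, which the identifiers name. Chromosome 1 held 23 members (30.6% of the 8553 genes), chromosome 2 held 32 (22.9%), chromosome 3 held 19 (23.4%), chromosome 4 held 12 (14.3%) and chromosome 5 held 14 (8.76%). In the order of identifiers, 3 pairs of members were at most 10 places apart. Such pairs were not counted for other sets of genes, so nothing is read from this number. Bradi1g53640.1 and Bradi1g53690.1 were 6 places apart, Bradi2g06120.1 and Bradi2g06220.1 were 7, and Bradi5g25740.1 and Bradi5g25780.1 were 4. Whether the members of a pair resemble each other in sequence was not tested.

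The choice was repeated in each replicate alone, so that the other could be read. Genes chosen in replicate 2 had a median margin of 1.51 in replicate 1, with 99 of 100 above 0 and 90 above 1, and 85 of them are members. Genes chosen in replicate 1 had a median margin of 1.44 in replicate 2, with 99 above 0 and 88 above 1, and 83 of them are members. For all but 1 gene each time, the margin was thus above 0 in libraries that had not been used for the choice. Those libraries are of the same groups that the rule uses, and how independent the 2 pools of a group are is unknown. The counts therefore describe agreement between replicates and are no separate test of the pattern. The exceptions, which are not members and were named after their values were seen, were Bradi1g39199.1, with a margin of -1.63 in the replicate not used, and Bradi3g53440.1, with -4.12.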

How the data were processed

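RNA-seq of 20 Brachypodium libraries, 2 in each of 10 groups, was analysed. The authors quantified reads with Salmon on representative Bd21 gene models (the submitters' notes also name CASAVA and Trimmomatic) and deposited log2 CPM values with their own normalization, whose prior count is not given in the sources used here. These are not counts, so depth is unknown and the authors' count test was replaced by limma. All 20 columns were matched to samples by name. The E180 and E400 embryos and Arabidopsis data were not analysed here.

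Members, lists and tests were chosen with earlier results of these data known. The values as deposited were fitted in R 4.3.3 with limma 3.58.1, with a mean for each of 10 groups, moderated variances with a trend, and 10 residual and 4.82 prior degrees of freedom. A gene had to exceed 0 log2 CPM in 2 or more libraries, which left 22902 genes tested and 847 not. All 100 members were tested. P-values were adjusted by Benjamini-Hochberg over all tested genes in each of 5 contrasts and called at 0.05. The procedure was tested on simulated data. Other calculations and the plots used Python 3.11.15 with pandas 2.3.3 and matplotlib 3.10.9.

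Named members are the first 4 by margin, the genes on both sides of the limit and, for each contrast, the 2 largest changes in each direction among called members whose libraries do not overlap. Others are named as chosen after their values were seen. A floor is a lowest value shared by libraries of a gene within 1e-06, and 2 members had libraries there. Planned gene lists, markers and motifs could not be applied without gene descriptions. Alternatives were other filters, equal library medians, a pseudocount of 1 CPM, no variance trend, a replicate block, fits of 2 groups, single libraries left out, and other limits of the rule.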

Additional observations from a re-analysis of the deposited data

How the results depend on the processing

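No direction of a named member was reversed under any alternative, and other members were not followed singly. In SEC against LEN, the larger of the 2 counts of members changed sides under some alternatives, as given above. Of 407 values of named members under the alternatives, 398 kept their direction and call, and 9 lost the call, all for the members and comparisons Bradi2g45470.1 (LEN against LEL) and Bradi1g76270.1 (SEC against LEN). The call of Bradi2g45470.1 was also lost with no filter (adjusted p = 0.0503) and with no variance trend (0.0709). Choosing members at a minimum of 2 log2 CPM in TCQ and MAT gave a median margin of 1.90 (59 members shared) and a minimum of 4 gave 1.27 (65 shared), in place of 1.46. With the minimum of 4, the share of members called lower was 21% in LEN against EEN, in place of 13%, and 16% in LEL against PEM, in place of 26%. A fit of LEN and EEN alone called 8% lower, while lower calls over the whole table fell from 7070 genes to 5824. The other shares stayed within 1.5 times. Equal library medians before the choice kept 91 members.

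Without single libraries, the share of members called higher ranged from 43% to 45% for LEL against PEM, 57% to 60% for LEN against EEN, 58% to 63% for LEN against LEL, 59% to 62% for SEC against LEL and 40% to 42% for SEC against LEN. The share called lower ranged from 24% to 25%, 9% to 12%, 18% to 19%, 24% to 26% and 38% to 41% in the same order. The group left with 1 library was assumed to vary like the others. The rule without replicate 1 or 2 gave median margins of 1.44 to 1.51 in the replicate left out.

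With the replicate block, members called higher and lower were 48 and 28, 62 and 14, 63 and 20, 62 and 26, and 42 and 39 in that order. Over all tested genes the same fit called 8328 and 8654, 7255 and 7166, 8502 and 8595, 8618 and 9067, and 7993 and 9571. Differences between replicates correlated across genes at 0.04 to 0.26 in the groups compared and at -0.13 to 0.55 over all 45 pairs of groups. Libraries of the same number thus deviated partly together in some groups, but no source used here says that a number marks a shared batch, and the block is given only as an alternative. Unknown depth limits what can be said of members near their floor.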

Other observations

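The member Bradi3g54460.1 had unequal replicates in the later groups. Its levels in replicates 1 and 2 were 1.09 and -0.30 log2 CPM in LEM, 1.51 and -0.75 in LEL, 4.59 and 2.06 in EEN, 3.92 and 2.28 in LEN and 5.15 and 1.30 in SEC. In TCQ, PEM and MAT they were 3.44 and 3.39, 2.40 and 2.35, and 3.44 and 3.36. Replicate 1 was thus above replicate 2 by more than 1 log2 in 5 groups, while the replicates were close in those 3. Among all 23749 genes, 76 had replicate 1 above replicate 2 by more than 1 log2 in each of these 5 groups, and 0 had the opposite. MAT is not among the 5 groups, but most of the 76, though not all, were split by more than 1 log2 in MAT too. Bradi3g54460.1, with close replicates in MAT, was an exception in this. It was the only member among the 76, and no test was run on this count.

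Bradi3g53440.1, 1 of the 76 and the gene that failed in the replicate not used for the choice, had 4.61 and 4.27 log2 CPM in TCQ and 2.61 and 2.47 in LEE. It then had 2.32 and -3.24 in LEM, 3.97 and -1.65 in MAT and 6.65 and 1.496 in SEC. These genes were singled out after their values were seen, and the cause of the difference was not tested.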
